A study of Mus musculus with 29 samples.

Results

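The genes described here encode the proteins of the cytosolic ribosome of the mouse. They were chosen by symbol: protein-coding genes named Rps or Rpl with a number, together with Rplp0, Rplp1, Rplp2 and Rpsa. The rule found 85 genes in the RefSeq table of GRCm38.p6, 32 of the small subunit and 53 of the large subunit, among 21900 protein-coding genes. Another 6 matching symbols were pseudogenes and were left out. The count tables had rows for 84 of the 85 (Rpl32l had none), among 48709 gene rows, and 81 of the 84 passed the filter on low counts. Fau, which encodes a small-subunit protein fused to a ubiquitin-like sequence, lies outside the symbol rule and is given below in a separate list.

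The libraries came from mouse cortex of E16.5 (embryonic day) that had been treated with vehicle or with trichostatin A (TSA), an inhibitor of histone deacetylases. Nuclei were sorted by FACS into those with and those without Tbr2, the transcription factor of basal progenitors that Eomes encodes. The RNA groups held 3 Tbr2-positive vehicle, 2 Tbr2-positive TSA, 3 Tbr2-negative vehicle and 2 Tbr2-negative TSA libraries. The groups of chromatin immunoprecipitation for acetylated lysine 9 of histone H3 (H3K9ac) held 3, 4, 4 and 4 libraries in the same order. All groups share the age and tissue, and the labels name no strain, dose or duration of treatment. The series text speaks of sorted nuclei, while the RNA protocol in the labels speaks of whole tissue. Eomes, whose product was the sort marker, stood at 443 ± 93.0 CPM (read counts scaled to library size; SD, n = 3) in Tbr2-positive vehicle libraries and at 18.03 ± 4.05 (n = 3) in Tbr2-negative ones. Library totals ran from 18567111 to 26282652 counts. Nothing in the labels says that replicates came from separate animals, so the p-values reflect only how far these samples spread, which may be technical.

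The cytosolic ribosome joins a small subunit, which reads the mRNA, to a large subunit, which makes the peptide bond and holds the exit tunnel of the nascent chain. Its proteins are made in near-equal amounts from single-copy genes scattered over the genome, whose mRNAs are short, abundant and long-lived, and whose translation answers to mTOR through a run of pyrimidines at the start of the mRNA. A few ribosomal proteins have paralogs, which can take the place of the main protein in some tissues. H3K9ac marks active promoters.

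As a family, ribosomal protein mRNA made up a larger part of the RNA in TSA libraries than in vehicle libraries of both populations. Summed over the 84 genes, the level was 7445, 9897 and 10976 CPM in the Tbr2-positive vehicle libraries and 17330 and 15042 CPM in the Tbr2-positive TSA libraries. In Tbr2-negative nuclei it was 8674, 12496 and 10208 CPM with vehicle and 20085 and 15658 CPM with TSA. Every TSA library thus lay above every vehicle library, in both populations. The group means were 9439 ± 1810 and 16190 ± 1620 CPM (SD, n = 3 and 2) in positive nuclei, a ratio of 1.72, and 10460 ± 1920 and 17870 ± 3130 CPM (n = 3 and 2) in negative nuclei, a ratio of 1.71. As a share of all counts the members took 0.773 to 1.083% and 1.489 to 1.651% in positive vehicle and TSA libraries. In negative nuclei they took 0.947 to 1.264% and 1.518 to 1.83%. These sums describe the libraries and were given no test. In bulk samples like these, fewer cells of a type and less RNA per cell cannot be told apart.

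**Figure D1:**
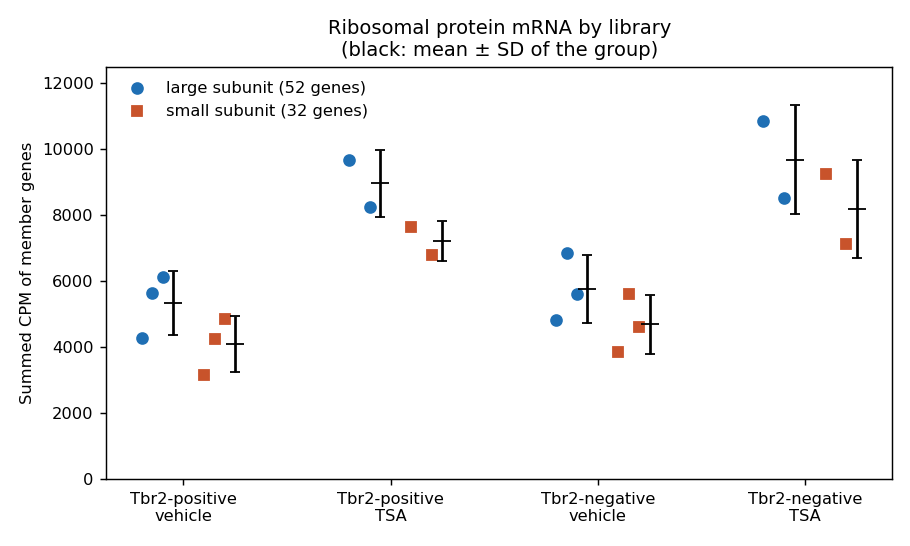
Summed CPM (y axis) of the 52 large-subunit and the 32 small-subunit member genes with a count row, one point per library, by group (x axis), with black bars for the mean ± SD. For both subunits the TSA libraries of each population sit above all of its vehicle libraries.

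Both subunits were higher with TSA. Small-subunit genes summed to 4092 ± 848 CPM in positive vehicle and 7216 ± 606 CPM in positive TSA libraries (n = 3 and 2), and large-subunit genes to 5348 ± 964 and 8970 ± 1010 CPM. In negative nuclei the small subunit stood at 4698 ± 887 and 8186 ± 1490 CPM and the large subunit at 5762 ± 1040 and 9685 ± 1640 CPM. The small-subunit part of the family total ran from 42.6 to 44.2% in positive vehicle, 44.1 to 45.1% in positive TSA, 44.5 to 45.1% in negative vehicle and 45.6 to 46.0% in negative TSA libraries. The TSA range overlapped the vehicle range in positive nuclei and lay above it by less than 1 percentage point in negative nuclei.

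Averaged over both populations, TSA raised 75 of the 81 tested ribosomal protein genes and lowered 0 (edgeR, adjusted p under 0.05 over 20078 genes), where 6.39% of all genes were called higher and 4.46% lower. The median log2 fold change of the members was 0.84, with a middle 50% of 0.68 to 0.93, against -0.08 over all genes. Among called members the adjusted p ran from 0.00521 to 0.0454 (edgeR). The fit took the Tbr2-positive and Tbr2-negative libraries as independent. Whether libraries of the same treatment and number came from a shared sample is not stated. If they did, these p-values would be too small. All 32 small-subunit genes passed, with log2 fold changes from 0.47 to 1.23 and a median of 0.86. Of the 49 large-subunit genes 43 passed, with a median of 0.80 over the 49 and a range from -0.45 to 1.24. The count fell to 31 without the first Tbr2-negative TSA library, and those 31 genes also passed in each of the other 9 fits that left out 1 library.

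Without pooling the populations fewer genes passed. In Tbr2-negative nuclei TSA raised 23 of 81 members and lowered 0 (edgeR), beside 0.817% of all genes called higher and 0.359% lower. The members' median there was 0.82 on the log2 scale. The adjusted p of the 23 lay between 0.0481 and 0.0492, just inside the threshold, and the count was 0 without any one of 5 libraries: Tbr2-positive vehicle 2, Tbr2-negative vehicle 1 or 3, or Tbr2-negative TSA 1 or 2. It was 35 without Tbr2-positive vehicle 1 and 45 without Tbr2-negative vehicle 2. Over all genes these fits called 386 (290 higher) and 677 (486 higher), against 236 (164 higher) with all libraries. In Tbr2-positive nuclei 0 of 81 members passed by edgeR, as did 0.0% of all genes. An unadjusted p under 0.05 (edgeR) was found for 75 members and for 3175 of all 20078 genes. DESeq2 called 57 members, and 1065 of 30594 genes over all, 559 of them higher. Without the second positive TSA library edgeR called 2. The median log2 fold change there was 0.81, with 80 of 81 positive. In 79 of 81 members every positive TSA library lay above every positive vehicle library, against 15.9% of all genes. In 75 of 81 every negative TSA library lay above every negative vehicle library, against 19.7%. In 75 members this held in both populations, against 8.85% of all genes.

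The largest responses fell on a handful of genes of both subunits. Rpl39 (ENSMUSG00000079641), which lines the exit tunnel of the large subunit, stood at 27.4, 38.7 and 50.2 CPM in positive vehicle and 94.6 and 81.4 CPM in positive TSA libraries. In negative nuclei it stood at 36.3, 52.2 and 40.2 CPM with vehicle and 125 and 85.3 CPM with TSA. The lowest TSA library was well above the highest vehicle library, and on average Rpl39 rose by 1.24 ± 0.18 on the log2 scale (SE; adjusted p = 0.00531, edgeR). Rps29 (ENSMUSG00000034892), a zinc-binding protein of the small-subunit head, went from 67.2, 93.4 and 110 CPM to 200 and 190 CPM in positive nuclei. In negative nuclei it was at 89.8, 121 and 94.0 CPM with vehicle and at 293 and 220 CPM with TSA. Its log2 fold change of 1.23 ± 0.15 had the smallest adjusted p of the family (0.00521, edgeR), and its groups did not overlap.

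Rpl32 (ENSMUSG00000057841), a large-subunit protein, was at 87.7, 122 and 142 CPM in positive vehicle and 268 and 243 CPM in positive TSA libraries. In negative nuclei its values were 102, 173 and 120 CPM against 372 and 272 CPM, again with no overlap, and its log2 fold change was 1.21 ± 0.17. Rps12 (ENSMUSG00000061983), at the beak of the small subunit, rose by 1.17 ± 0.15 on the log2 scale. Rpl38 (ENSMUSG00000057322), known for its part in the translation of Hox mRNAs in the mouse embryo, and Rpl35 (ENSMUSG00000062997), near the tunnel exit, each rose by 1.16 ± 0.16. Adjusted p was 0.00531 for each of these genes (edgeR). Rps25, which some viral and cellular internal initiation needs, rose by 1.07 ± 0.16, and Rpl31, another tunnel-exit protein, by 1.09 ± 0.15.

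The proteins of the stalk, which recruits and activates the GTPases of translation, followed. Rplp1 rose by 0.90 ± 0.13 and Rplp2 by 0.88 ± 0.12 on the log2 scale, while Rplp0, the scaffold that holds them, rose by 0.60 ± 0.16. Rplp0 passed in 5 of the 10 fits that each left out 1 library. Rpsa, a small-subunit protein also known as a laminin receptor, rose by 0.56 ± 0.15, with 181, 237 and 240 CPM against 406 and 305 CPM in positive nuclei. In negative nuclei Rpsa was at 245, 340 and 260 CPM with vehicle and at 450 and 311 CPM with TSA, so there the groups overlapped. Rps2 (0.47 ± 0.13) was the lowest of the called members. Rpsa and Rps2 are uncertain, since 14.99 and 18.2% of the reads of each gene and its named pseudogene loci together lay on the pseudogenes, and the authors' treatment of reads with several matches is not stated in these sources.

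**Figure D2:**
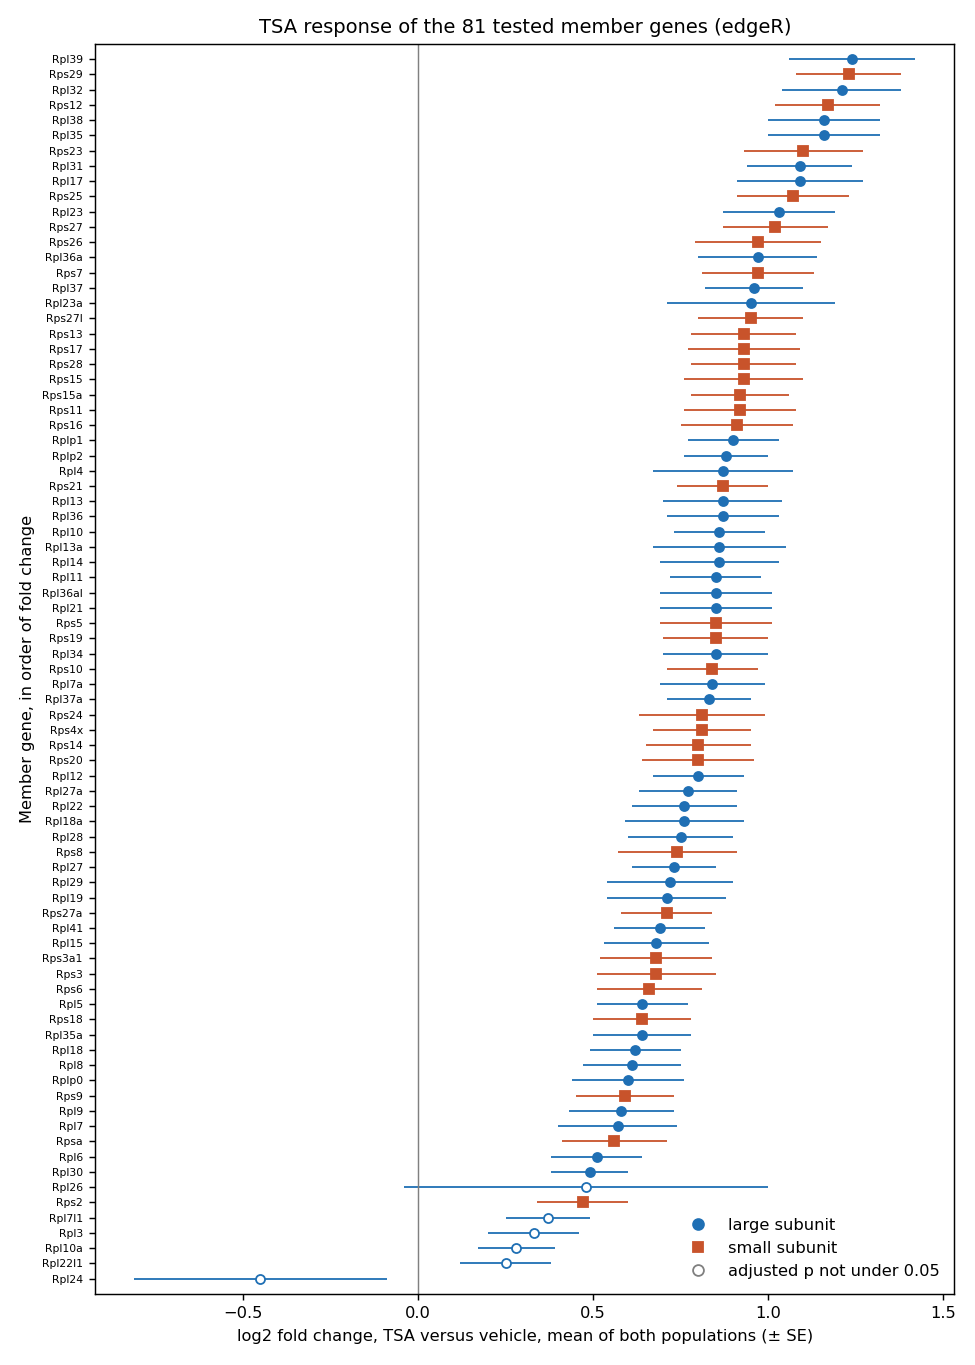
Log2 fold change of TSA over vehicle, averaged over both populations (x axis, ± SE, edgeR), for each of the 81 tested member genes (y axis), with filled symbols for adjusted p under 0.05 and open symbols otherwise. Rpl39 (1.24) is at the top and Rpl24 (-0.45) at the bottom, and the 6 open symbols are all large-subunit genes.

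The 6 members that did not pass were all large-subunit genes. Rpl24 (ENSMUSG00000098274), which forms a bridge between the subunits, was the one member with a negative value, -0.45 ± 0.36 (adjusted p = 0.453, edgeR). Its row held only 41 to 97 counts per library. Against the median member of the same library its group means lay between -4.99 and -6.45 on the log2 scale. Its value is uncertain, since the handling of reads with several matches is not stated. Whether reads of this gene were counted on another row was not tested. Its values were 3.24, 2.84 and 2.69 CPM in positive vehicle and 2.21 and 2.32 CPM in positive TSA libraries, and 4.10, 3.25 and 1.90 against 2.17 and 2.09 CPM in negative nuclei. The groups did not overlap in positive nuclei, with TSA below, as in 17.6% of all genes, and overlapped in negative nuclei. Rpl26 (ENSMUSG00000060938), also known to bind the p53 mRNA, was at 0.48 ± 0.52 on the log2 scale (adjusted p = 0.602, edgeR). Its vehicle values were 38.7, 53.9 and 37.2 CPM in positive and 46.4, 71.2 and 34.0 CPM in negative nuclei. With TSA it was at 94.9 and 19.3 CPM in positive and at 129 and 19.4 CPM in negative nuclei. The library numbered 1 was thus above all vehicle libraries, and the library numbered 2 below all of them, in both populations.

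The other 4 uncalled members had smaller errors and small positive values. Rpl22l1 was at 0.25 ± 0.13 (adjusted p = 0.243), Rpl10a, which forms the L1 stalk beside the tRNA exit site, at 0.28 ± 0.11 (0.125), Rpl3, near the peptidyl transferase centre, at 0.33 ± 0.13 (0.125) and Rpl7l1 at 0.37 ± 0.12 (0.0662; all edgeR). Rpl10a, for example, was at 71.5, 72.2 and 77.6 CPM in positive vehicle and 100 and 86.3 CPM in positive TSA libraries. Its negative values were 87.1, 93.4 and 99.2 CPM with vehicle and 124 and 94.7 CPM with TSA. Its groups overlapped in the negative nuclei and not in the positive ones. A p above the threshold does not show that these genes did not change.

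The TSA response was then compared between the populations. Across the 81 genes the log2 fold changes in positive and negative nuclei had a Spearman rho of 0.74, a description over genes that share libraries within each population. The test of the difference between the populations (interaction) called 0 of 81 members and 0.0% of all genes (edgeR). DESeq2 also called 0 members, and 12 of 30594 genes over all. An unadjusted p under 0.05 (edgeR) was found for 1 member, beside 1103 of all 20078 genes. That member was Rpl12 (ENSMUSG00000038900), at the base of the stalk, with a log2 fold change of 1.11 ± 0.19 in positive and 0.48 ± 0.19 in negative nuclei and a difference of 0.62 ± 0.27 (adjusted p = 0.895, edgeR). Rpl36al lay at the other end, with a difference of -0.37 ± 0.32 (adjusted p = 0.951, edgeR). For the 81 members the differences had a median of -0.03, with 32 positive. The sign of this median was not stable: it was above 0 in 4 of the 10 fits that left out 1 library and ran from -0.19 with 13 positive (without Tbr2-negative TSA 2) to 0.15 with 76 positive (without Tbr2-negative TSA 1).

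**Figure D3:**
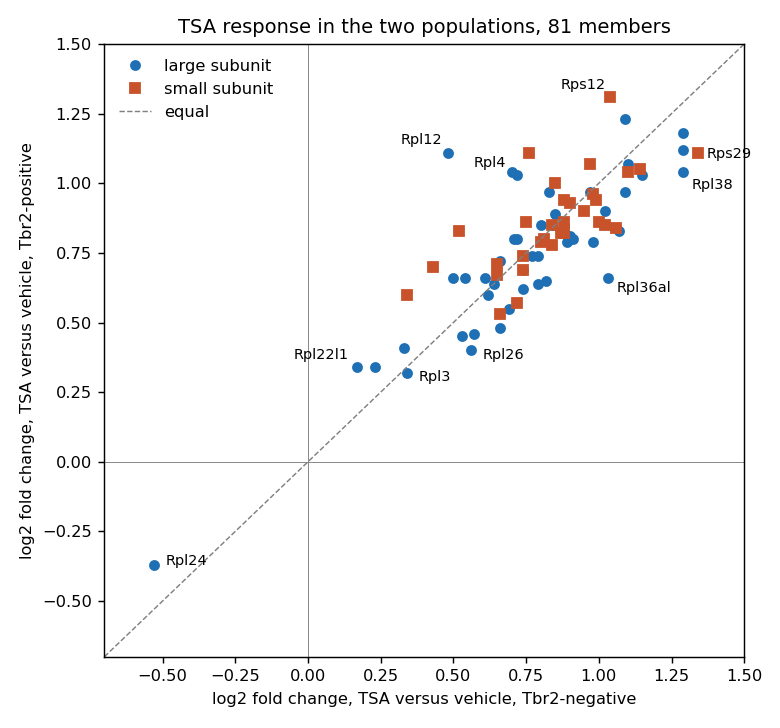
Log2 fold change of TSA over vehicle in Tbr2-positive (y axis) against Tbr2-negative nuclei (x axis) for the 81 tested members, one point per gene, with a dashed line at equal response. Most points lie near the line, Rpl12 (1.11 against 0.48) lies above it, and Rpl24 is alone below 0 on both axes.

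Few ribosomal protein genes differed between the populations. In vehicle libraries 3 of 81 members were lower in Tbr2-positive than in Tbr2-negative nuclei and 0 were higher (edgeR), against 11.5% of all genes lower and 9.96% higher, so the share of members called was below that of all genes. The members' median log2 fold change was -0.15, and 14 of 81 were positive. This lean rested on single libraries, since the median was 0.02 with 41 positive without Tbr2-positive vehicle 1 and -0.01 with 39 positive without Tbr2-negative vehicle 2. Rpl12 was at 45.6, 62.5 and 53.4 CPM in positive and 91.7, 97.5 and 90.7 CPM in negative vehicle libraries. All positive libraries were below all negative ones, by -0.79 ± 0.17 on the log2 scale (adjusted p = 0.00517, edgeR), and this call held in all 10 fits that left out 1 library. Rps12 was at 22.8, 28.5 and 34.8 CPM against 39.1, 51.8 and 44.6 CPM (-0.65 ± 0.20, adjusted p = 0.0318). Rpl22 (ENSMUSG00000028936) was at 45.2, 68.3 and 63.1 CPM against 74.5, 120 and 81.5 CPM (-0.64 ± 0.20, adjusted p = 0.0350). Neither pair of groups overlapped, but Rps12 passed in 6 and Rpl22 in 4 of the 10 fits. The count was 1 without Tbr2-positive vehicle 1, Tbr2-negative vehicle 2 or Tbr2-negative vehicle 3. In all, 9 members were lower in every positive than in every negative vehicle library (21.3% of all genes) and 0 were higher (18.4%).

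With TSA, 0 of 81 members differed between the populations by edgeR, where 5.13% of all genes were lower and 4.19% higher. An unadjusted p under 0.05 (edgeR) was found for 4 members and for 4617 of all 20078 genes. DESeq2 called 0 members, and 3052 of 30594 genes over all. The median was -0.18, and 0.05 without the first negative TSA library. The lowest values were those of Rpl38 and Rpl17 (-0.59 ± 0.25 and -0.59 ± 0.29) and Rpl22 (-0.56 ± 0.24), and the highest that of Rpl4 (0.61 ± 0.31). For Rpl4, the positive TSA libraries held 788 and 450 CPM and the negative ones 429 and 384 CPM. The first positive TSA library stood far above the other 3.

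Of the 8 paralogs, 4 were detected well enough to test. Rps27l, a p53-responsive paralog of Rps27, rose with TSA by 0.95 ± 0.15 and Rpl36al, a paralog of Rpl36a, by 0.85 ± 0.16 on the log2 scale (both past the threshold, edgeR). Rpl22l1 and Rpl7l1 did not pass, as given above. Their partners rose: Rps27 by 1.02 ± 0.15, Rpl36a by 0.97 ± 0.17, Rpl22 by 0.76 ± 0.15 and Rpl7 by 0.57 ± 0.17, the last in only 2 of the 10 fits that left out 1 library. Rpl22l1 was at 32.7, 28.4 and 29.1 CPM in positive vehicle and 40.6 and 35.5 CPM in positive TSA libraries. In negative nuclei it was at 39.5, 33.9 and 31.4 CPM with vehicle and 43.5 and 35.0 CPM with TSA, where the groups overlapped.

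The paralog's part of the reads of a pair is free of gene length only as a change between libraries, and is given so. Rpl22l1 made up 34.3 ± 6.67% of its pair in positive vehicle and 27.1 ± 0.636% in positive TSA libraries (n = 3 and 2). In negative nuclei the shares were 28.1 ± 6.31% and 20.5 ± 1.41%. TSA shares lay below every vehicle share in both populations. Rps27l made up 43.4 ± 1.40% and 39.1 ± 3.11% of its pair in positive vehicle and TSA libraries. In negative nuclei it made up 34.7 ± 2.07% and 35.9 ± 1.06%. Its lowest positive library (36.9%) was above its highest negative library (36.6%). Rpl36al ran from 33.9 to 45.5% and Rpl7l1 from 18.7 to 30.1% over all libraries, with group ranges that overlapped between the populations in vehicle. With TSA they did not overlap: Rpl36al was at 33.9 and 37.8% in positive and 39.2 and 39.5% in negative libraries, and Rpl7l1 at 26.0 ± 2.12% in positive and 19.4 ± 0.919% in negative ones (SD, n = 2 and 2). These shares were given no test.

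**Figure D4:**
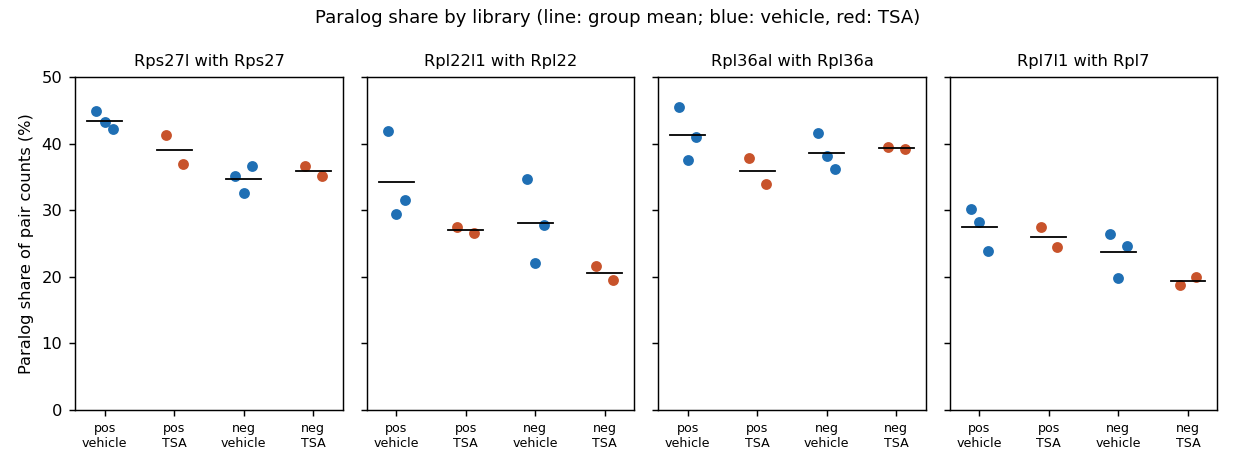
Share of the counts of a paralog pair that fell on the paralog (y axis, percent), one point per library by group (x axis), with a line at the group mean. The share of Rpl22l1 is lower with TSA than with vehicle in both populations, and that of Rps27l is higher in Tbr2-positive than in Tbr2-negative nuclei.

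The remaining paralogs were at or near 0. Rpl10l had 0 counts in all 10 libraries, which allows up to 3 counts in each. Rpl39l had 4 and 3 counts in the first and second negative vehicle libraries and 0 elsewhere, and Rpl3l, known from heart and skeletal muscle, had 1 in a positive and 5 in a negative vehicle library. These 3 genes did not pass the filter and were not tested.

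Other genes of translation had smaller medians than the members. Of the 5 genes of the fusion and associated list, 3 rose with TSA in the average of both populations: Fau, which encodes a small-subunit protein (0.64 ± 0.14), Ubb (0.53 ± 0.15) and Rack1, a scaffold on the small-subunit head (0.44 ± 0.13). Of the 9 genes of the elongation factor list 4 rose and 0 fell, with a median of 0.42. Among them were Eef1a1 (0.63 ± 0.16), which brings aminoacyl-tRNA to the ribosome, and Eef1b2, its exchange factor (0.60 ± 0.13). Eef1e1 (1.10 ± 0.16), listed for its name and not itself an elongation factor, also rose. Of 33 initiation factor genes 15 rose and 0 fell, with a median of 0.41, led by the eIF3 subunit genes Eif3g (0.63 ± 0.12), Eif3f (0.76 ± 0.16) and Eif3k (0.79 ± 0.17). Of 31 ribosome biogenesis genes 4 rose and 0 fell, with a median of 0.06: Nop10, Npm1, Pno1 and Polr1d, at 0.59 to 0.81. Of 13 regulators of ribosomal protein expression 0 passed, with a median of 0.03. In vehicle libraries Myc, one of these regulators, was lower in positive nuclei by 1.18 ± 0.26 (adjusted p = 0.00597, edgeR).

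Genes of mitochondria and other short, abundant mRNAs also rose. Of 77 mitochondrial ribosomal protein genes 37 rose and 0 fell, with a median of 0.44 and Mrpl42 (0.96 ± 0.15) first by adjusted p. Of 76 nuclear genes of the respiratory chain 58 rose and 1 fell, with a median of 0.67, among them Cox7b (1.09 ± 0.15) and Atp5e (1.11 ± 0.16). Of 16 short cytosolic mRNAs from other families 13 rose and 0 fell, with a median of 0.75, among them the thymosin genes Tmsb10 (1.42 ± 0.16) and Tmsb4x (1.23 ± 0.17) and Tpt1 (1.11 ± 0.16). All of these counts are from the average of both populations, where 6.39% of all genes rose.

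Nuclear noncoding RNA moved the other way. Of 10 nuclear long noncoding RNAs 5 fell and 0 rose with TSA, with a median of -0.84, among them Miat (-1.33 ± 0.27), Snhg11 (-1.15 ± 0.27) and Meg3 (-1.14 ± 0.29). Their summed level was 10750 to 15010 CPM in positive vehicle libraries, 6215 and 12410 CPM in positive TSA libraries, 9913 to 14530 CPM in negative vehicle libraries and 6231 and 8586 CPM in negative TSA libraries. The vehicle libraries with the lowest ribosomal protein sums, the first of each population at 7445 and 8674 CPM, had 15010 and 14310 CPM of these RNAs. The second negative vehicle library, with the highest ribosomal protein sum of the vehicle libraries (12496 CPM), had 14530 CPM, so the sums did not move in opposite directions in all vehicle libraries. The same libraries had the lowest mitochondrially encoded sums, 558 and 391 CPM, against 1484 to 2530 CPM in the other vehicle libraries and 2201 to 2816 CPM in the TSA libraries. None of the 7 tested mitochondrially encoded genes passed for TSA by edgeR, with a median of 0.84. In these libraries mt-Co2, mt-Atp8, mt-Atp6, mt-Co3 and mt-Nd4l were at 0. The part of the mix of nuclear, cytosolic and mitochondrial RNA in the ribosomal protein result was not tested.

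Of 48 tested marker genes of cell types, 4 (8.33%) were called higher with TSA in the average of both populations and 0 lower (edgeR), beside the 6.39% and 4.46% of all genes. Basal progenitor markers (8 genes) summed to 3000 to 4250 CPM in positive vehicle and 2730 to 3350 CPM in positive TSA libraries, with 0 called. In negative nuclei they summed to 501 to 514 and 680 to 712 CPM. Only 2 of these 8 genes had positive log2 fold changes there, and the median was -0.44. The higher sum thus did not reflect most of the list. Interneuron markers (7 genes) went from 584 to 656 CPM up to 1070 to 1150 CPM in negative nuclei, with 2 called higher in the average of both populations, Sst and Dlx5. In positive nuclei they stood at 92.9 to 193 CPM with vehicle and 180 to 189 CPM with TSA. Neuron markers (6 genes) were at 4030 to 4840 and 5330 to 5960 CPM in positive and 6230 to 7900 and 8370 to 9330 CPM in negative nuclei, with Stmn2 called higher. Radial glia markers (8 genes) were at 962 to 1250 CPM with vehicle and 1000 to 1130 CPM with TSA in positive nuclei. In negative nuclei they were at 796 to 851 and 997 to 1050 CPM, with 7 of the 8 log2 fold changes positive. Sox2 was called higher in the average of both populations. Microglia markers (6 genes) ran from 9.94 to 56.5 CPM, vascular and meningeal markers (7 genes) from 14.7 to 45.8 CPM and erythroid markers (7 genes) from 283 to 704 CPM over all libraries, with 0 called for TSA. The part of cell composition in the ribosomal protein result was not tested.

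The size of the TSA response within the family was set beside other properties of the genes. Over 81 members the averaged log2 fold change had a Spearman rho of -0.33 with the mean vehicle CPM and of -0.25 with the genomic span of the gene. It was 0.04 with the share of reads on named pseudogene loci and 0.00 with the number of such loci. These are descriptions over genes that share libraries and carry no test. The vehicle libraries enter both the mean vehicle CPM and the fold change, so their spread alone can push that rho below 0. Named pseudogenes of 60 members (298 loci) held 1.3% of the reads of the members and their pseudogenes, and 4 members, Rps24, Rpsa, Rpl23a and Rps2, had over 10% on them. Only loci with the symbol of a member and the ending -ps count as named here. Pseudogenes under other symbols are left out, such as Rps3a3 with 7312 counts over all libraries, beside 38848 for Rps3a1. These shares are therefore partial.

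H3K9ac was present at nearly all ribosomal protein genes in every group. A peak of the authors' lists overlapped the window of 1 kb around either gene end in all 15 libraries for 80 of 85 members, against 54.4% of all 21900 protein-coding genes. By group, 81 members had a peak in every Tbr2-positive vehicle library and 80 in every library of each other group, where the shares of all genes were 59.9, 54.8, 60.7 and 59.7%. For 31 members the end of another gene lay in the same window, so that the peak cannot be assigned to the member alone. Where the annotated start lay at a gene end (55 members), a peak was within 500 bp of that end in all 15 libraries for 51 and of the far end in all 15 for 5, and 32 had no far-end peak in any library. These 80 genes are counted for having a peak in every library, so the presence of a peak cannot show a difference between treatments in them. The positive TSA libraries held fewer peaks in all (31823 to 40053, against 47835 to 82164 in the other 11 libraries).

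By rank the members' peaks stood high in every library. Ranked by the authors' -log10 q among all genes with a gene-end peak in the same library, the member median lay between the 67.6th and the 77.6th percentile. The positive vehicle libraries had medians of 75.2, 73.5 and 75.8 and the positive TSA libraries 74.2, 76.9, 70.5 and 77.1. The negative vehicle libraries had 72.5, 67.6, 73.8 and 68.4 and the negative TSA libraries 77.6, 74.4, 75.9 and 69.8. The groups overlapped in rank in each comparison. The length covered by peaks did separate the positive TSA libraries: their median over the member windows was 1358, 1370, 1319 and 1287 bp, below all of the positive vehicle libraries at 1517, 1437 and 1503 bp. Over all genes with a peak the positive libraries covered 988 to 1030 bp with TSA and 1122 to 1133 bp with vehicle, so the shorter cover was found also outside the family. In negative nuclei the member medians of 1502.5 to 1596 bp with vehicle and 1417 to 1636 bp with TSA overlapped. These lengths were given no test. Over 80 members the median percentile had a Spearman rho of 0.00 with the averaged TSA response of the mRNA.

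Members differed in rank more than groups did. Rpl13a (chr7), known from translational control in inflammation, had a median at the 97.6th percentile and a range of 69.8 to 99.8 over the 15 libraries. Rpl15, Rpl32 and Rpl9 followed at medians of 95.3, 94.3 and 93.7. At the low end stood 3 of the 4 X-linked members, Rps4x, Rpl39 and Rpl36a, with medians of 22.5, 24.0 and 26.1. Over all libraries these 3 genes ran from the 2.3rd to the 38.2nd percentile. The fourth, Rpl10, whose variants are known in X-linked neurodevelopmental disorders, ran from 48.2 to 86.0 and shares its window with Dnase1l1. X-linked genes outside the family had medians of at most 28.0 per library and autosomal genes outside it 50.1 to 51.8, so the low rank was found also in other X-linked genes. Rpl39 had the largest TSA response of the mRNA and one of the lowest ranks. The 4 X-linked members rose with TSA by 0.81 to 1.24 on the log2 scale, a median of 0.92.

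**Figure D5:**
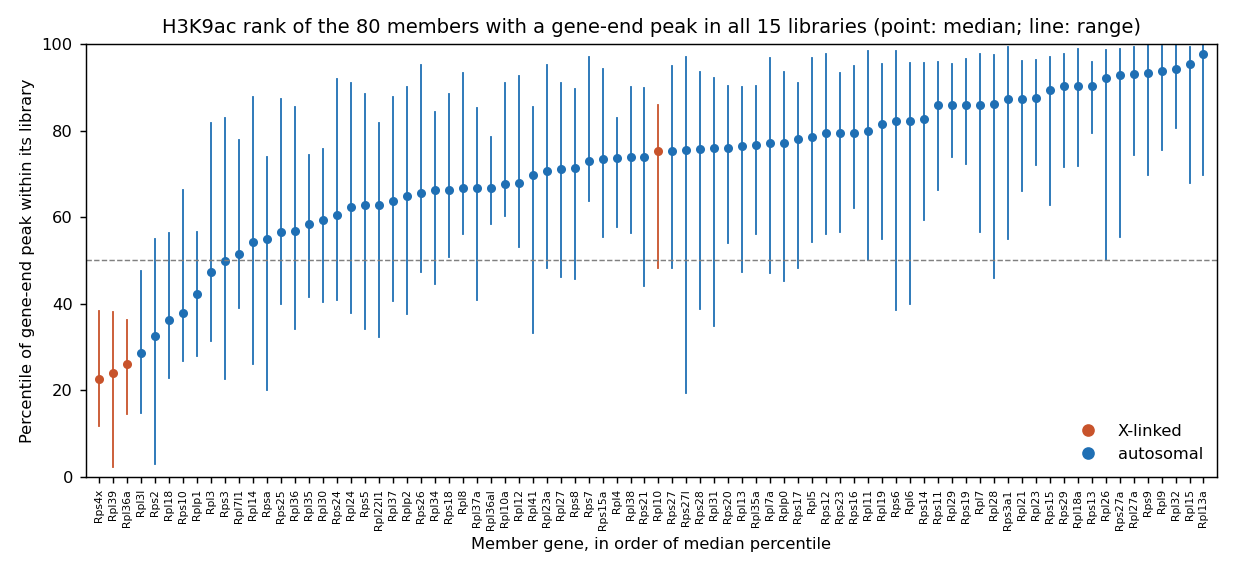
Percentile of the gene-end H3K9ac peak by the authors' -log10 q among all genes with such a peak in the same library (y axis) for the 80 members with a peak in all 15 libraries (x axis), as the median (point) and the range over libraries (line). The X-linked genes Rps4x, Rpl39 and Rpl36a are lowest, and Rpl10 lies among the autosomal genes.

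The 5 members without a gene-end peak in all libraries fell into 2 kinds. The paralogs Rpl10l, Rpl39l and Rpl32l had no peak at either end in any library and none over the gene. Rpl22 had none at its ends, but a peak began 1358 to 1425 bp inside the lower gene coordinate in all 15 libraries, and 1 of its 2 annotated starts had a peak within 1 kb. Rpl17, which borders the exit tunnel, had peaks over the gene body in all 15 libraries. Its end windows held a peak in 3 of 3 positive vehicle, 0 of 4 positive TSA, 1 of 4 negative vehicle and 1 of 4 negative TSA libraries. The window reached 1 kb into the gene, close to where the first of these peaks began. That was 909, 914 and 1213 bp inside the lower gene coordinate in the positive vehicle libraries. In the positive TSA libraries it was 1101 to 1576 bp. With positive vehicle the median overlap was 92 bp, and the peak's median rank the 4.4th percentile. The part of this edge in the difference was not tested. Rpl17 was the 1 member of 231 genes (1.05% of all) with a peak in every positive vehicle and no positive TSA library. Fisher's exact test (two-sided) could not go below p = 0.0286 for such a gene, and the adjusted p over all genes was 1.0. The Rpl17 mRNA was at 37.8, 60.2 and 60.6 CPM in positive vehicle and at 108 and 107 CPM in positive TSA libraries, and it passed in the average of both populations with a log2 fold change of 1.09 ± 0.18. Rpl3l had gene-end peaks in all 15 libraries with near 0 counts, and its window holds an end of Msrb1.

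The promoters of members with the lowest and the highest averaged TSA response are shown next, to let their starts be compared. RefSeq promoters (GRCm38.p6) were at hand for 65 members, not for 20, Rps29 and Rpl32 among them. The capitals mark every match of the motifs searched: CTTTCC or CTTTTC from 10 bases before to 30 after the start on the gene's strand, a pyrimidine run as at the start of such mRNAs, and, on either strand anywhere in the 300 bases, CCGGAAG (an ETS core), AAGATGGC (YY1), GGGCGG (Sp1), TATAAA and CACGTG (an E-box). Each line runs 5′ to 3′ on the gene's strand, from 80 bases before the RefSeq start to 20 bases after it. The start used lies at the annotated gene end in 4 of the 6, and 174 bases inside it in Rps12 and 762 bases inside it in Rpl38. The 3 lowest were Rpl24 (chr16:55966195-55966294, plus strand), Rpl22l1 (chr3:28805428-28805527, plus) and Rpl10a (chr17:28328391-28328490, plus). The response of Rpl24 is uncertain, as given above. The 3 highest with an entry were Rpl39 (chrX:37085203-37085302, minus), Rps12 (chr10:23787190-23787289, minus) and Rpl38 (chr11:114668500-114668599, plus).
Rpl24: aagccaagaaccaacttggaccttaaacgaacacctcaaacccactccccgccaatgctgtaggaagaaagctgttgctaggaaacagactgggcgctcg
Rpl22l1: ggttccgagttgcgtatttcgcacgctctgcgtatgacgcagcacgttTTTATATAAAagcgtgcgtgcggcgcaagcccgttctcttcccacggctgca
Rpl10a: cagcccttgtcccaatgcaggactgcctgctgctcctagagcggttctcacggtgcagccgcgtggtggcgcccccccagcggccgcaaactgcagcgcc
Rpl39: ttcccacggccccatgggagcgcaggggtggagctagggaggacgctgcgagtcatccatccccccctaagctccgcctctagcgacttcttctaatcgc
Rps12: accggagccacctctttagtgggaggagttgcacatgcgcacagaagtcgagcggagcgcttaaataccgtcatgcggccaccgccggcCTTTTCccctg
Rpl38: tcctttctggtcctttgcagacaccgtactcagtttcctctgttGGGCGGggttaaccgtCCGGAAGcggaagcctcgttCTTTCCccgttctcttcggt

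Among the printed stretches CTTTCC or CTTTTC was found in Rps12 and Rpl38, and a TATAAA that reads on both strands in Rpl22l1. Rpl22l1 and Rpl39 also hold runs of pyrimidines after the start that these letters do not match. Such other runs were not searched for or counted. Over the 65 member promoters CTTTCC or CTTTTC stood at the start in 18.5%, against 2.63% of 17427 other promoters. CCGGAAG was in 38.5% of members and 11.8% of the others, AAGATGGC in 9.23 and 3.18%, and GGGCGG in 60.0 and 46.3%. TATAAA was in 12.3 and 13.3% and CACGTG in 7.69 and 7.91%. These shares describe letters in the windows, and a missing match says only that the letters are not there.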

How the data were processed

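Counts per gene were deposited by the authors as raw read counts per Ensembl gene. Per the submitters' processing notes the build was mm10. The aligner, the counting tool and the handling of reads with several matches were not given in the sources used. Per the labels' protocols the RNA kit was TruSeq RNA v2, which keeps no strand, so overlapping antisense genes cannot be told apart. H3K9ac peaks were called per library with MACS 2.1.0.20140616 at a q cutoff of 0.1, per the file headers. From these lists only positions and the deposited -log10 q (a −log10 value, as a rank within a library) were used. ChIP tags per library ran from 15173175 to 30267202. The 4 input libraries were not analysed here.

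CPM were computed on TMM-scaled library sizes. All 10 RNA libraries entered a robust edgeR 4.0.16 quasi-likelihood fit (R 4.3.3) with 1 mean per group after filterByExpr (20078 genes). It was checked on simulated counts. There were 6 contrasts, each adjusted by Benjamini-Hochberg over its 20078 genes, with a threshold of 0.05. The SE is the log2 fold change over the square root of F. The common biological coefficient of variation was 0.374. Alternatives were DESeq2 1.42.0, RLE scaling, no filter, leaving out each library, replicate blocks, and other windows, q cutoffs and overlaps for peaks. Peaks were matched (1 bp or more) to windows of 1 kb on both sides of either end of 21900 RefSeq genes (GRCm38.p6). Intervals and limits from counts cover counting error only. No source names a batch.

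Named with values were, per contrast, the 5 members with the highest and the 5 with the lowest fold changes among the larger comparisons, called members with the smallest adjusted p (up to 8), paralogs and their main genes, Rpsa and the stalk genes, members without a peak in some library, and up to 3 passing genes of each list. Not all of these are written out, and 1 result is not reported here. Rpl24, Rpl26, Rpl4, Rpl36al and the X-linked members were described further after their values were seen. The members and the gene lists were chosen with earlier results of these data known. A planned ordering by level per length and a planned comparison of paralog proteins were not made, since transcript lengths and protein sequences were not used here.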

Additional observations from a re-analysis of the deposited data

Results flagged for a closer look

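In 2 groups of 4 H3K9ac libraries, 1 library stood apart in the number of members with a gene-end peak: 81 in the third Tbr2-negative vehicle library and 81 in the first Tbr2-negative TSA library, against 80 in the other 3 libraries of each group. The added member was Rpl17 in both. For continuous values chance sets apart about 1 group in 20 by this criterion. That rate does not hold for whole counts like these, where 1 library that differs by 1 gene is always set apart.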

How the results depend on the processing

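The direction of the TSA response held in every setting run: 79 or 80 of 81 members were positive in each TSA contrast with RLE scaling, no filter, DESeq2, the replicate block by number and without any one library. The number that passed did not. In Tbr2-positive nuclei the count of 0 became 47 with no filter on low counts and 57 with DESeq2, and lay between 0 and 2 without one library. In Tbr2-negative nuclei the count of 23 became 54 with no filter and 65 with DESeq2, and lay between 0 and 45 without one library. Calls over all genes rose with these settings as well. In Tbr2-positive nuclei they went from 0 to 364 with no filter and 1065 with DESeq2. In Tbr2-negative nuclei they went from 236 to 944 and 2029. For the average of both populations the count of 75 ran from 31 to 75 without one library. The 3 members lower in Tbr2-positive vehicle nuclei became 5 with DESeq2 and 1 to 4 without one library. Over all genes DESeq2 called 5402 in that comparison, in place of 4303. The median in the comparison of populations with TSA, -0.18, ran from -0.34 to 0.05 without one library, the last without the first Tbr2-negative TSA library. The cause of these shifts was not tested. Replicate numbers correlated at r of 0.081 to 0.117 between populations of the same treatment and at -0.053 to 0.004 between treatments, with 2 of the 5 same-treatment pairs above the 0.1 required of all of them to treat the numbers as pairs. All 5 were above 0, and the labels do not say what a number marks. With the number as a block, 0 members passed in Tbr2-negative nuclei, 0 in Tbr2-positive nuclei and 71 in the average. With treatment and number as a block, 10 members in place of 3 were lower in Tbr2-positive vehicle and 3 in place of 0 in Tbr2-positive TSA nuclei. Calls over all 20078 genes also rose with that block. In vehicle they went from 4303 (1999 higher) to 4823 (2311 higher), and with TSA from 1871 (841 higher) to 2326 (1048 higher). The TSA contrasts were not run with that block, so no setting allows for samples shared between the populations in them. Other alternatives (RLE scaling, peak windows of 0.5 and 2 kb, a q of 0.01, an overlap of 200 bp, other scalings of the sums) kept the counts within 1.5 times. With 2 libraries in each TSA group, the precision of the TSA contrasts rests on the spread pooled over groups.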
